A study of Mus musculus with 8 samples.

Results

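The transcription factor NF-κB is built from 5 related subunits, and the transcripts of these subunits and of their best known inhibitors and cofactors were followed here in mouse brain. The 10 genes were chosen by symbol and role, with earlier results of these data known. These were the subunit genes Nfkb1, Nfkb2, Rel, Rela and Relb, the IκB genes Nfkbia, Nfkbie, Nfkbiz and Bcl3, and the kinase gene Ikbke. They are 10 of the 54532 genes listed for the comparison of stroke plus stress with stress alone and 10 of the 28229 genes listed for the drug comparison. All 10 passed the filter on low counts in both. Expression was measured by bulk RNA-seq in 8 libraries of C57BL/6 mouse brain, all labelled Day 21, with 2 libraries in each of 4 groups. In the group PTS + RS, mice had a photothrombotic stroke (a cortical infarct made by illuminating a light-sensitive dye in the vessels) followed by restraint stress. The group RS had restraint stress alone, without stroke, and all 4 libraries of these groups were labelled cortex, taken from the damaged cortex where there was a stroke. The groups HDAC3 inhibitor and NaCl both carried PTS + RS. The HDAC3 inhibitor group received RGFP109 subcutaneously at 60 mg/kg once a day. The labels give the control group as NaCl treatment, and the paper calls its controls vehicle. RGFP109, named for HDAC3 in the labels, is a class I inhibitor that acts on both HDAC1 and HDAC3, enzymes that remove acetyl groups from histones and from other proteins. In each of these 2 groups replicate 1 was labelled cortex and replicate 2 amygdala, so that the replicate number and the tissue are the same factor. An age, around 3 months, is given only for mice of a behavioural test and not for the sequenced mice, nor do the labels say whether a library held 1 mouse or several, so p-values measure only the spread between libraries. There was no group without restraint stress among these libraries.

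NF-κB acts as a pair of subunits. In resting cells the pair is held in the cytoplasm by an IκB protein. Receptors for cytokines and for microbial products switch on the IκB kinase complex, IκB is phosphorylated and destroyed, and the pair enters the nucleus and turns on genes of inflammation and cell survival, several of its own inhibitors among them. In the brain this route is best known from microglia, the resident macrophages. Because much of the control lies in protein turnover, phosphorylation, acetylation and entry into the nucleus, transcript levels of the subunits do not read out the activity of the factor.

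The libraries held 15902013 to 21712033 counts, of which 3.59% to 4.55% fell on mitochondrial genes. Some libraries stood apart from their labels. NaCl replicate 1, labelled cortex, held Fezf2, a transcription factor of deep cortical layers, at 4.10 CPM (the usual read count scaled to library size), whereas the other 7 libraries held it at 35.3 to 53.0 CPM. Its level of Neurod6, a marker of excitatory cortical neurons, was 11.7 CPM against 50.8 to 176 CPM in the others. The 8 listed cortex markers summed to 1168 CPM in it, against 1418 to 1923 CPM in the others. Not all of them were low in it. The log2 ratio of the HDAC3 inhibitor library labelled cortex to this library was 0.36 for Rorb and -0.54 for Cux2. In the 2 libraries labelled amygdala, 8 markers of the striatum summed to 792 and 919 CPM, against 78.9 to 200 CPM in the 6 libraries labelled cortex. The 6 amygdala markers summed to 94.5 and 97.1 CPM in these libraries and to 67.2 to 146 CPM in those labelled cortex. The amygdala label was thus not borne out by its markers. The 8 cortex markers summed to 1798 and 1722 CPM in the libraries labelled amygdala, within the range of those labelled cortex. Their fitted values of amygdala over cortex were above 0 in 8 of 8, without overlap in 3. Hemoglobin genes summed to 124 and 427 CPM in the libraries labelled amygdala, against 1.46 and 12.5 CPM in the cortex-labelled libraries of the same table. Of these libraries, "cortex" and "amygdala" below mean the label.

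The promoters of the genes whose transcript levels differed most between groups of libraries are shown here, since the IκB genes Nfkbia and Bcl3 and the subunit gene Nfkb2 are known both as parts of the pathway and as genes that NF-κB turns on. Each window runs from 250 bases before to 50 bases after the RefSeq start of the gene (GRCm38.p6), 5′ to 3′ on the strand of the gene. Bcl3 is on the minus strand (chr7:19822706-19823005), Nfkb2 on the plus strand (chr19:46304487-46304786, the first of 3 listed starts) and Nfkbia on the minus strand (chr12:55492598-55492897). Capitals mark every match to the loose κB letters GGGNNNNNCC on either strand, where N is any base, and neighbouring matches that overlap run together.
Bcl3: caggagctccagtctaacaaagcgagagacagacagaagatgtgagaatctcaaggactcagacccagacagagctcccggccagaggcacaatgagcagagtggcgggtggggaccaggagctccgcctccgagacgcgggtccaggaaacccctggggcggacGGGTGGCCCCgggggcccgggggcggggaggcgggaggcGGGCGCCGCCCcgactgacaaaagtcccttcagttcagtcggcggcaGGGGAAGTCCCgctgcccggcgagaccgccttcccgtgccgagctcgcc
Nfkb2: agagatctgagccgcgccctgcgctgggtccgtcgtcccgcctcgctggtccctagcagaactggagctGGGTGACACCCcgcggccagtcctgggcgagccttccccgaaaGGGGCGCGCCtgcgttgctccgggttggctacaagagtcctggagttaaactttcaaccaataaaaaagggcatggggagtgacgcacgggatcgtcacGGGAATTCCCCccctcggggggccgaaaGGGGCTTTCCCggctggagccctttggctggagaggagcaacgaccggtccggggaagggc
Nfkbia: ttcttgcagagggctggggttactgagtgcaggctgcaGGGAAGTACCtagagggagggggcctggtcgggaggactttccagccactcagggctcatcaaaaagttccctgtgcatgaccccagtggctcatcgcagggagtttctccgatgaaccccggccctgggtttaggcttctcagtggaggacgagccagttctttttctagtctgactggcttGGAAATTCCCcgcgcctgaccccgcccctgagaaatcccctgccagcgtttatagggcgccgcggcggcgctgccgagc

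Of the 10 genes, 7 had an entry in the RefSeq promoter table. Nfkb1, Relb and Nfkbiz had none. The loose letters were found in 6 of these 7 genes, all but Ikbke, and in 50.8% of all 32851 promoters of the same length. A gene was counted if any of its windows matched (9 windows for the 7 genes, 3 of them for Nfkb2), whereas the percentages here count single windows. The stricter letters GGGNNTTTCC, which are contained in the loose ones, were found in 3 of 7, against 1.63% of all promoters. The 3 were Nfkbia, whose match GGAAATTCCC starts 29 bases before the gene start, Nfkb2, with GGGGCTTTCC starting 11 bases before it in the window shown and GGGACTTTCC in the stretch shared by both other windows, and Rel, with GGAAATCCCC. Bcl3 had 5 loose matches and no strict one. A match of letters is a description of the window and shows no binding, which was not measured here.

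PTS + RS was compared with RS to ask what stroke adds to the transcriptome of stressed mice. The fitted level was above that of RS for all 10 genes, but 0 of 10 were called higher and 0 of 10 lower at an adjusted p under 0.05 (quasi-likelihood test in edgeR, p-values adjusted by Benjamini and Hochberg's method over 17581 genes). Over all genes 2.96% were called higher and 0.586% lower, and 49.7% lay above 0. Without adjustment, Bcl3, Nfkb1 and Nfkb2 were higher at p under 0.05, which is 3 of 10 beside 10.3% of all genes, and 0 of 10 were lower beside 7.55%. In 7 of 10 both PTS + RS libraries lay above both RS libraries, beside 25.7% of all genes, and in 0 of 10 below, beside 24.5%. The median log2 difference of the 10 was 0.43, and that of all genes tested was -0.0015.

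**Figure D1:**
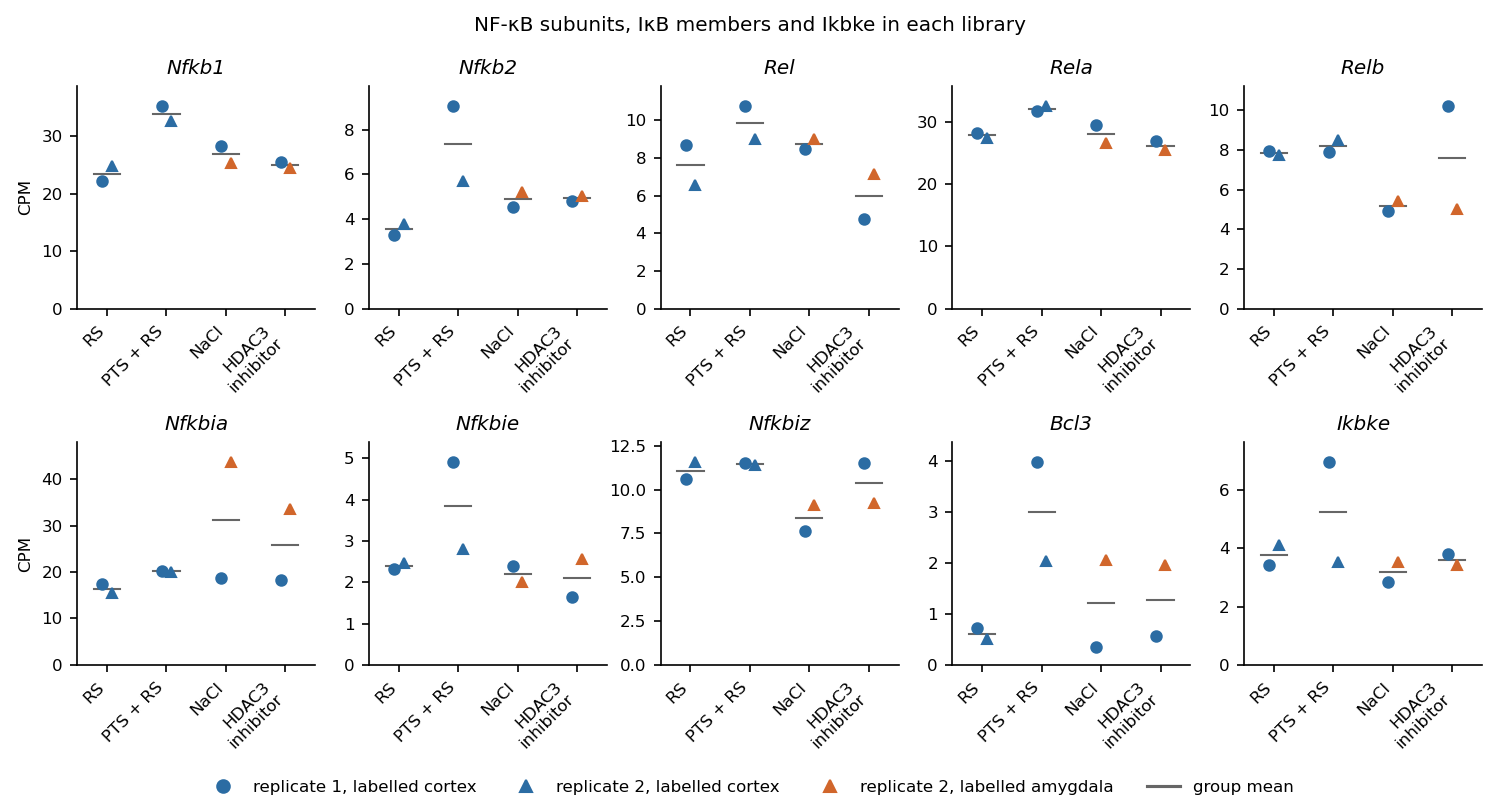
Level of each of the 10 genes in each library, in CPM on a linear axis from 0; circles are replicate 1, triangles replicate 2, blue is labelled cortex, orange labelled amygdala, and the bar is the mean of 2 libraries. Bcl3 and Nfkb1 lie higher in both PTS + RS libraries than in both RS libraries, and Nfkbia and Bcl3 lie higher in the libraries labelled amygdala than in those labelled cortex of the NaCl and HDAC3 inhibitor groups.

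Nfkb1 encodes p105, the precursor that is cut to the DNA-binding subunit p50 and that also acts as an inhibitor while uncut (ENSMUSG00000028163, chromosome 3, 135584655 to 135691547, minus strand, GRCm38). It measured 35.2 and 32.6 CPM in the PTS + RS libraries and 22.1 and 24.7 CPM in the RS libraries. The 2 groups did not overlap, and the gap between them was wider than the spread within either. The log2 difference was 0.53 (SE 0.11, 95% interval 0.27 to 0.80, edgeR adjusted p = 0.0537), a 1.45-fold higher level that just missed the threshold.

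Nfkb2 encodes p100, the precursor of p52, the partner of RelB in the alternative branch of the pathway (ENSMUSG00000025225, chromosome 19, 46304737 to 46312090, plus strand). Its levels were 9.05 and 5.69 CPM in PTS + RS and 3.31 and 3.79 CPM in RS. Both PTS + RS libraries were higher, replicate 1 the more so. The log2 difference was 1.06 (SE 0.28, edgeR adjusted p = 0.101). Rela, which encodes p65, the activating subunit found in most pairs (ENSMUSG00000024927, chromosome 19, 5637483 to 5648130, plus strand), measured 31.8 and 32.6 CPM in PTS + RS and 28.3 and 27.4 CPM in RS. The groups did not overlap, yet the log2 difference was small, at 0.21 (SE 0.099, 95% interval -0.026 to 0.44, edgeR adjusted p = 0.334).

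Rel encodes c-Rel, an activating subunit best known from lymphocytes (ENSMUSG00000020275, chromosome 11, 23736847 to 23770970, minus strand). It measured 10.7 and 8.98 CPM in PTS + RS and 8.66 and 6.56 CPM in RS, with a log2 difference of 0.37 (SE 0.21, edgeR adjusted p = 0.402). The groups lay next to each other, with the lower PTS + RS library just above the higher RS library. Relb, the subunit that pairs with p52 (ENSMUSG00000002983, chromosome 7, 19606217 to 19629438, minus strand), was at 7.88 and 8.50 CPM in PTS + RS and at 7.95 and 7.76 CPM in RS. Here the groups overlapped, and the log2 difference was 0.06 (95% interval -0.34 to 0.46, edgeR adjusted p = 0.898).

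Among the inhibitors and cofactors, Bcl3 had the widest fitted difference of the 10. Its product is a nuclear IκB-like protein that binds pairs of p50 or p52 and can activate or repress their genes (ENSMUSG00000053175, chromosome 7, 19808462 to 19822770, minus strand). It was counted 68 and 34 times in the PTS + RS libraries and 13 and 8 times in the RS libraries, which is 3.97 and 2.03 CPM against 0.72 and 0.50 CPM. Every PTS + RS value exceeded every RS value, while the PTS + RS libraries themselves lay far apart. The log2 difference was 2.27 (SE 0.47, 95% interval 1.17 to 3.38, edgeR adjusted p = 0.0504).

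Nfkbia encodes IκBα, the inhibitor that is destroyed and remade within each round of activation (ENSMUSG00000021025, chromosome 12, 55489410 to 55492647, minus strand). It measured 20.3 and 20.0 CPM in PTS + RS and 17.4 and 15.4 CPM in RS. The groups did not overlap, and the log2 difference was 0.29 (SE 0.13, edgeR adjusted p = 0.295). Nfkbie encodes IκBε, a slower acting relative (ENSMUSG00000023947, chromosome 17, 45555703 to 45563169, plus strand), and was at 4.90 and 2.81 CPM in PTS + RS and 2.32 and 2.46 CPM in RS. As with Nfkb2, replicate 1 of PTS + RS stood well above the other 3 libraries, and the log2 difference was 0.69 (SE 0.34, edgeR adjusted p = 0.341). Nfkbiz encodes IκBζ, a nuclear cofactor needed for late target genes (ENSMUSG00000035356, chromosome 16, 55811375 to 55838899, minus strand). It was nearly level, at 11.5 and 11.4 CPM against 10.6 and 11.5 CPM, with a log2 difference of 0.05 (95% interval -0.31 to 0.41, edgeR adjusted p = 0.903).

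Ikbke encodes IKKε, an IKK-related kinase of antiviral and NF-κB signalling (ENSMUSG00000042349, chromosome 1, 131254343 to 131279606, minus strand). It measured 6.95 and 3.53 CPM in PTS + RS and 3.42 and 4.10 CPM in RS. The groups overlapped, since only replicate 1 of PTS + RS was higher. The log2 difference was 0.48 (SE 0.34, edgeR adjusted p = 0.521).

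These calls depended on single libraries and on the test. Without replicate 2 of PTS + RS, 5 of 10 were called higher (Bcl3, Ikbke, Nfkb1, Nfkb2 and Nfkbie), beside 7.69% of all genes, whereas without replicate 1 only Nfkb1 was, beside 5.58%. Without replicate 1 the log2 difference of Nfkbie was 0.23, that of Nfkb2 0.68 and that of Ikbke -0.089, and without replicate 2 they were 1.03, 1.35 and 0.89. In these fits the lone PTS + RS library is assumed to vary like the RS libraries. DESeq2 called Bcl3 alone (adjusted p = 0.0149), beside 3.42% of all genes, and edgeR without the filter on low counts called Bcl3, Nfkb1 and Nfkb2, beside 3.72%.

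**Figure D2:**
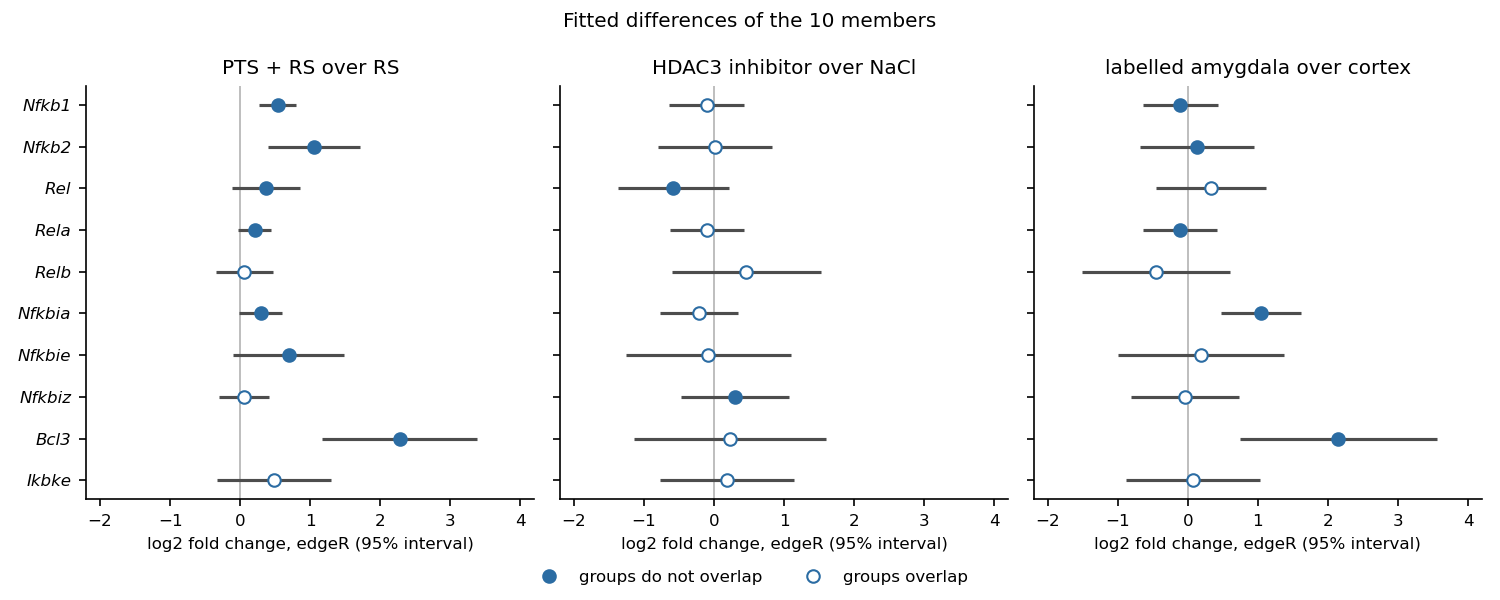
Fitted log2 fold change of each gene in 3 comparisons, with its 95% interval from edgeR; filled points are genes whose groups of 2 libraries do not overlap, and the vertical line is no difference. In PTS + RS over RS all 10 points lie above 0, in HDAC3 inhibitor over NaCl every interval spans 0, and in amygdala over cortex the intervals of Nfkbia and Bcl3 lie above 0.

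Markers of other cells moved with the same groups. All 12 microglia markers were called higher in PTS + RS, with a median log2 difference of 2.11, and their summed level was 1374 and 1161 CPM in PTS + RS against 325 and 291 CPM in RS. Of 6 astrocyte markers, 4 were called higher, with a median of 0.59, and 0 of 7 neuron markers were called, with a median of -0.17. Over all genes, 2.96% were called higher and 0.586% lower. In the PTS + RS and RS libraries, neutrophil markers were near 0 (summed level 0.30 to 0.83 CPM, with Ly6g and Elane at 0 in all 4), as were T and B cell markers (0.99 to 2.10 CPM, with Cd3g and Ms4a1 at 0 in all 4). In bulk RNA, a different number of cells of a type and a different amount of RNA per cell cannot be told apart, and the part of the microglia in the levels of the 10 genes was not tested. The library with the higher microglia sum, PTS + RS replicate 1, was also the one with the higher Bcl3, Nfkb2, Nfkbie and Ikbke. Rela and Relb were higher in replicate 2. Astrocyte markers also had the higher sum in replicate 1, at 7089 CPM against 5804 CPM. The border macrophage markers of PTS + RS replicate 1 summed to 23.8 CPM, against 11.0 CPM in replicate 2 and 7.13 and 8.66 CPM in RS.

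Around the 10 genes, the rest of the pathway was described by lists chosen by role, with earlier results of these data known. At the top of the pathway, 4 of the 10 tested receptor genes were called higher by at least 2-fold and none lower, where 2.12% of all genes were called so higher and 0.091% lower. Tlr2, the receptor for bacterial lipoproteins, measured 17.5 and 13.5 CPM in PTS + RS and 1.49 and 1.26 CPM in RS. This was the widest difference of the receptors, at 3.48 (log2, SE 0.24, edgeR adjusted p = 7.6e-04). Cd14, which passes lipopolysaccharide to Tlr4, differed by 1.99 (adjusted p = 0.0103) and the TNF receptor gene Tnfrsf1b by 1.72 (adjusted p = 0.00472), and Tnfrsf11a, the receptor RANK, was 2.82-fold higher (adjusted p = 0.0247). The lowest value of the list was -0.02, for Il1rap. All libraries of the 4 called genes were higher in PTS + RS than in RS.

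The cytokine ligands were mostly too low to test. Of 10 listed, 3 passed the filter and 0 were called, with the largest value for Il1a, a cytokine released by activated or dying cells, at 1.58 (edgeR adjusted p = 0.187). Tnf was counted 6 and 3 times in PTS + RS and 0 times in both RS libraries, and Il6 at most 2 times in any of the 4.

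Between the receptors and IκB lie the IκB kinase complex, the kinases above it and their adaptors. Of 12 genes for these kinases and their adaptor subunits 1 was called higher, beside 2.96% of all genes, and none lower, beside 0.586%. The called gene was Tab2, an adaptor of the kinase TAK1, at 0.46 (log2, SE 0.072, edgeR adjusted p = 0.0197). None of the kinase genes themselves was called. Tab2 measured 100.5 and 99.3 CPM in PTS + RS and 72.3 and 72.9 CPM in RS, a narrow spread within each group. Map3k14, the kinase of the alternative branch that leads to p52, had the largest value of the list, 0.58 (edgeR adjusted p = 0.187), and Tbk1 the smallest, -0.08. In 7 of these 12 genes both PTS + RS libraries lay above both RS libraries, beside 25.7% of all genes, and in 0 below, beside 24.5%. Of 20 adaptors and ubiquitin ligases 0 were called, from Irak2 at -0.08 to Birc3 at 1.07 (edgeR adjusted p = 0.227). Of these 20, 16 had values above 0, beside 49.7% of all genes, with a median of 0.21. The groups did not overlap in 11 on the higher side, beside 25.7% of all genes, and in 0 on the lower side, beside 24.5%. Both other IκB genes tested, Nfkbib and Nfkbid, had values of 0.19 and 0.58 and were not called. Of 7 feedback inhibitors outside the IκB family 0 were called, from Tnip2 at -0.14 to Irak3 at 0.85 (edgeR adjusted p = 0.382). Tnfaip3, which encodes the ubiquitin-editing inhibitor A20, had a value of 0.30 (edgeR adjusted p = 0.426). The groups of these 7 did not overlap in 3 on the higher side, beside 25.7% of all genes. They did not overlap in 3 on the lower side (Tnip2, Cyld and Otud7b), beside 24.5%.

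Among 20 known target genes, 17 were tested and 8 were called higher by at least 2-fold, beside 2.12% of all genes. In the other direction 0 were called, beside 0.091%. The groups did not overlap in 11 of the 17 on the higher side, beside 25.7% of all genes. On the lower side they did not overlap in 3 (Sod2, Ptgs2 and Gadd45b), beside 24.5%. Ptgs2 had a log2 difference of -0.26 (edgeR adjusted p = 0.357). Icam1, an adhesion molecule for leukocytes, measured 7.82 and 7.96 CPM in PTS + RS and 2.15 and 2.65 CPM in RS, a log2 difference of 1.72 (SE 0.22, edgeR adjusted p = 0.00897). Cxcl10, a chemokine of interferon responses, measured 13.9 and 4.31 CPM against 0.50 and 0.57 CPM, with 4.08 (SE 0.65, edgeR adjusted p = 0.0200). Both sets of libraries were clear of each other, though the PTS + RS libraries of Cxcl10 lay far apart.

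Several chemokine and acute phase genes of the list were almost uncounted in RS, so their fitted values are not given. Ccl3 was counted 103 and 53 times in PTS + RS and 2 and 0 times in RS (edgeR adjusted p = 0.00665). Ccl4 was counted 31 and 24 times against 1 and 1 (adjusted p = 0.0111), and Ccl2 13 and 14 times against 1 and 0 (adjusted p = 0.0497). Lcn2, which encodes an iron-binding protein of reactive astrocytes and the acute phase, was counted 104 and 136 times against 2 and 3 (adjusted p = 0.00112). Csf1, the growth factor of microglia, differed by 1.11 (adjusted p = 0.00267) and Cd83, a surface protein of activated immune cells, by 1.08 (adjusted p = 0.0429). The lowest value of the list was -0.31, for Gadd45b (adjusted p = 0.448). The microglia sums given above moved with these groups here too, and their part in these levels was not tested.

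**Figure D3:**
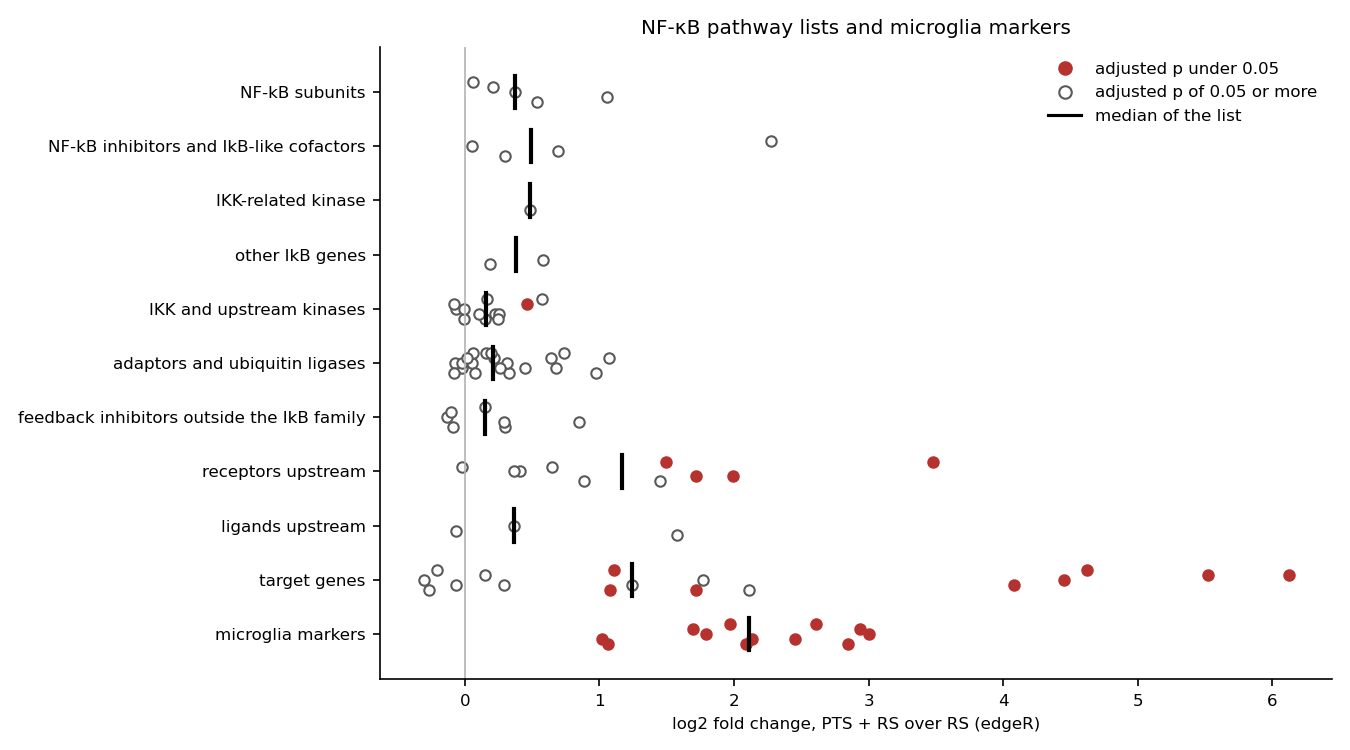
Fitted log2 fold change, PTS + RS over RS, of each tested gene of the NF-κB lists and of the microglia markers; red points had an adjusted p under 0.05 in edgeR, open points did not, and the black bar is the median of the list. No subunit or inhibitor is red, 4 receptors, 8 target genes, the TAK1 adaptor gene Tab2 and all 12 microglia markers are, and the values of Ccl2, Ccl3, Ccl4 and Lcn2 rest on 0 to 3 counts in each RS library.

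Levels were compared between genes only per length, in FPKM as deposited (counts scaled to gene length and library size). In PTS + RS, Nfkbia came first with 12.4 ± 0.050 FPKM (SD, n = 2) and Rela next with 11.8 ± 0.23. These were followed by Nfkb1 with 2.79 ± 0.14, Nfkbiz with 2.27 ± 0.0023, Nfkb2 with 2.22 ± 0.71 and Relb with 2.09 ± 0.12. Rel had 1.31 ± 0.16, Nfkbie 1.26 ± 0.48, Bcl3 1.20 ± 0.54 and Ikbke 0.576 ± 0.26. Within this order Nfkbiz, Nfkb2 and Relb overlapped each with the next, as did Rel, Nfkbie and Bcl3. In RS, Rela with 10.2 ± 0.20 and Nfkbia with 10.1 ± 0.88 overlapped at the top, and Bcl3 came last with 0.246 ± 0.060 FPKM, below Ikbke with 0.415 ± 0.054. The gene length behind the FPKM was 12061 bases for Nfkb1 and 1610 bases for Nfkbia, so these levels also depend on which transcripts of a gene are counted in its length.

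Of the summed FPKM of the 5 subunits, Rela held 56.2% to 63.9% over the 8 libraries, and Nfkb1 held 11.2% to 14.0%. Together these are the transcripts of the classical p65 and p50 pair. Nfkb2 held 13.2% and 8.73% in the PTS + RS libraries and 6.12% and 7.11% in the RS libraries. The sum of the 5 was 20.7 and 19.7 FPKM in PTS + RS and 16.4 and 16.1 FPKM in RS. In the second table it was 15.2 to 16.8 FPKM. The ratio of Nfkbia to Rela was 0.946 to 1.15 in the 6 libraries labelled cortex and 2.22 and 2.77 in the libraries labelled amygdala.

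**Figure D4:**
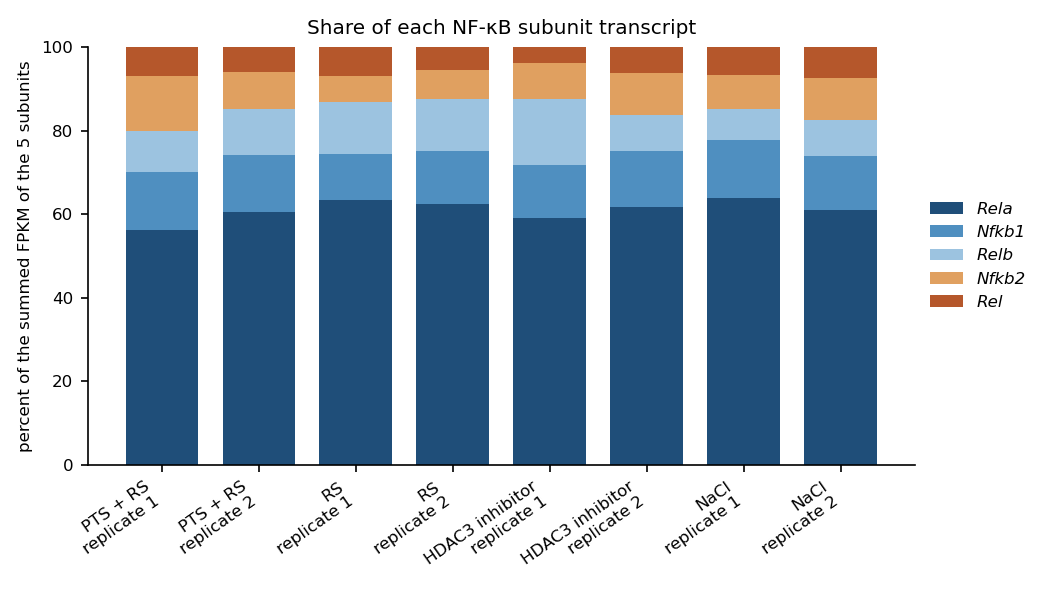
Share of each subunit gene in the summed FPKM of the 5 subunits, in percent, as 1 stacked bar per library. Rela takes the largest share of every bar, between 56.2% and 63.9%, and the share of Nfkb2 is largest in PTS + RS replicate 1, at 13.2%.

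The libraries of the second table also came from mice with PTS + RS. In those labelled cortex, Bcl3, Nfkb1 and the microglia markers nevertheless lay below both libraries of the PTS + RS group. This did not hold for every gene, since Relb in the HDAC3 inhibitor library labelled cortex lay above both. The tables were normalized separately, so these values are set side by side without a test. Bcl3 was at 0.34 CPM in the NaCl library labelled cortex and at 0.57 CPM in the HDAC3 inhibitor library labelled cortex, near the 0.50 and 0.72 CPM of RS. Nfkb1 was at 28.3 and 25.4 CPM there, between the RS and the PTS + RS values. The microglia markers summed to 298 and 375 CPM in these 2 libraries.

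HDAC3 inhibitor was compared with NaCl to ask what RGFP109 changes in mice with PTS + RS, in a fit that also held the labelled tissue. Among the 10 genes 0 were called higher and 0 lower, as for all 17565 genes tested (0.0% in either direction by edgeR, and 0 higher and 6 lower by DESeq2). At an unadjusted p under 0.05, 0 of 10 were higher, beside 0.547% of all genes, and 0 of 10 lower, beside 0.934%. Nfkbiz was the 1 gene of 10 with both HDAC3 inhibitor libraries above both NaCl libraries, beside 12.8% of all genes, and Rel the 1 with both below, beside 13.8%. The median log2 difference of the 10 was -0.031, that of all genes -0.012, and the 10 adjusted p-values were all 0.9999.

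Rel was counted 75 times in the cortex library and 153 times in the amygdala library of the HDAC3 inhibitor group, and 149 and 166 times in those of NaCl. This is 4.76 and 7.15 CPM against 8.48 and 9.03 CPM. The cortex library of the inhibitor group is the low one, and the log2 difference was -0.58 (SE 0.30, 95% interval -1.37 to 0.21). Nfkbiz measured 11.5 and 9.21 CPM with the inhibitor and 7.62 and 9.13 CPM with NaCl, a log2 difference of 0.30 (SE 0.29, 95% interval -0.46 to 1.07). The amygdala libraries were almost equal for this gene.

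Rela, whose protein is a known substrate of HDAC3, measured 26.9 and 25.5 CPM with the inhibitor and 29.6 and 26.6 CPM with NaCl. The groups overlapped, and the 95% interval of the log2 difference, -0.63 to 0.43, leaves room for changes of either sign. Nfkb1 likewise measured 25.4 and 24.5 CPM against 28.3 and 25.3 CPM (log2 difference -0.10, 95% interval -0.64 to 0.43). Acetylation of p65 was not measured in these libraries.

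Relb was apart in the cortex pair and close in the amygdala pair, at 10.2 CPM with the inhibitor and 4.95 CPM with NaCl, while in the amygdala pair it was at 5.00 and 5.44 CPM. Within the cortex pair the log2 ratio of inhibitor to NaCl was 1.03 for Relb, and within the amygdala pair it was -0.12. Of the 10 genes, 5 had the same sign in both pairs and 5 the opposite, where 48.6% of all genes had the same sign. The cortex pair spread more widely over all genes, with an SD of the log2 ratio of 0.864 against 0.383 in the amygdala pair, and 15.5% against 2.84% of genes lay past 2-fold. The cortex pair contains NaCl replicate 1, the library low in Fezf2 and Neurod6. Without it, 0 of 10 were called in either direction in a fit without the tissue, and the log2 difference of Bcl3 was -0.68 and that of Nfkbie 0.07.

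**Figure D5:**
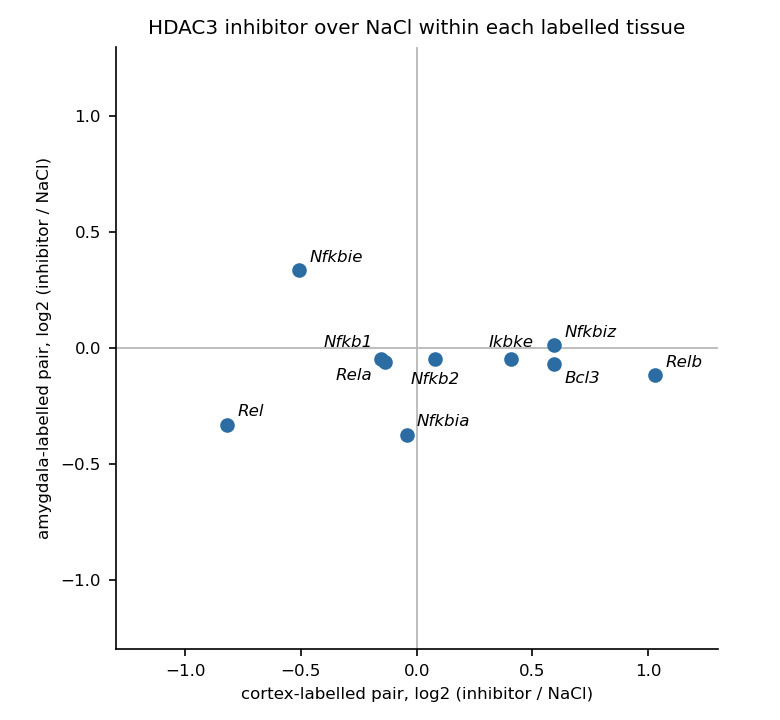
Log2 ratio of HDAC3 inhibitor to NaCl for each of the 10 genes, in the pair of libraries labelled cortex (horizontal axis) and in the pair labelled amygdala (vertical axis), with 1 library on each side of a ratio and hence no error bar. Relb at 1.03 and Rel at -0.82 lie farthest out in the cortex pair, and the 10 values of the amygdala pair lie between -0.37 and 0.34.

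The other lists of the pathway held no called gene in this comparison either. Of the 7 feedback inhibitors, Tnfaip3 had the largest value, at 7.67 and 8.60 CPM with the inhibitor and 3.87 and 5.17 CPM with NaCl (log2 difference 0.86, SE 0.29, unadjusted p = 0.0367, edgeR adjusted p = 0.9999). Of the 20 adaptors, Traf1, which links TNF receptors to ubiquitin ligases, had the smallest, at 1.33 and 0.98 CPM against 5.46 and 2.12 CPM (log2 difference -1.58, SE 0.45, edgeR adjusted p = 0.9999). In both genes the groups did not overlap, and neither passed the adjustment. Of the 20 adaptors and ubiquitin ligases, 3 lay above 0 and 17 below, beside 48.0% of all genes above. Their groups did not overlap in 0 on the higher side, beside 12.8% of all genes, and in 6 on the lower side, beside 13.8%. Nfkbib and Nfkbid also lay lower without overlap, at -0.27 and -0.46. The 15 target genes tested ran from Cxcl10 at -0.92 to Ptgs2 at 1.08, with 10 above 0. The microglia markers had 8 of 12 values above 0, beside 48.0% of all genes, with a median of 0.08.

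Libraries labelled amygdala were compared with those labelled cortex in the same fit, with treatment held. Nfkbia and Bcl3 stood out among the 10, but 0 of 10 were called higher and 0 lower, as were 0.0% of all genes either way by edgeR (154 higher and 53 lower by DESeq2, none of them among the 10). At an unadjusted p under 0.05, 2 of 10 were higher, beside 6.09% of all genes, and 0 of 10 lower, beside 3.06%. Groups did not overlap for 3 of 10 on the higher side (Nfkbia, Bcl3 and Nfkb2), beside 21.6% of all genes, and for 2 of 10 on the lower side (Nfkb1 and Rela), beside 22.4%.

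Nfkbia measured 33.7 CPM with the inhibitor and 43.7 CPM with NaCl in the libraries labelled amygdala, and 18.3 and 18.8 CPM in those labelled cortex. The 2 cortex values were almost equal and lay in the range of the PTS + RS and RS libraries. The log2 difference was 1.05 (SE 0.21, 95% interval 0.48 to 1.62, unadjusted p = 0.00578, edgeR adjusted p = 0.383). The log2 ratio of amygdala to cortex was 0.88 within the inhibitor group and 1.21 within the NaCl group. Bcl3 was counted 42 and 38 times in the libraries labelled amygdala, with the inhibitor and with NaCl, and 9 and 6 times in those labelled cortex. This is 1.96 and 2.07 CPM against 0.57 and 0.34 CPM, a log2 difference of 2.15 (SE 0.53, 95% interval 0.74 to 3.56, unadjusted p = 0.0120, edgeR adjusted p = 0.439). The other 8 genes had values between -0.45 and 0.33.

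Without NaCl replicate 1, in a fit without treatment, Bcl3, Nfkbia and Rel were called higher (3 of 10, beside 8.27% of all genes) and Relb lower (1 of 10, beside 5.51%), with 1.82 for Bcl3 (adjusted p = 0.0278), 1.09 for Nfkbia (adjusted p = 1.3e-05), 0.77 for Rel (adjusted p = 0.0470) and -0.96 for Relb (adjusted p = 0.00462). Without HDAC3 inhibitor replicate 1, Bcl3 and Nfkbia were called higher, beside 15.1% of all genes, and the value of Rel was -0.066 and that of Relb 0.08. Without HDAC3 inhibitor replicate 2 and without NaCl replicate 2, 0 of 10 and 0 genes in all were called, with adjusted p-values of 0.9999 and 0.9998 for both Bcl3 and Nfkbia. In the fits that made calls 1 cortex library stands against 2 and is assumed to vary like them. The low Fezf2 and Neurod6 of NaCl replicate 1 make the fit without HDAC3 inhibitor replicate 1 a comparison with a library that stands apart.

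Among the target genes of the pathway 0 of 15 tested were called between the labels. Of the 15, 13 lay above 0, beside 48.5% of all genes, and 2 below, with a median of 0.81. The groups did not overlap in 12 on the higher side, beside the 21.6% of all genes, and in 1 on the lower side, beside the 22.4%. Lcn2 was counted 273 and 482 times in the libraries labelled amygdala, with the inhibitor and with NaCl, and 25 and 4 times in those labelled cortex (log2 difference 4.50, SE 0.94, edgeR adjusted p = 0.393). Of the feedback inhibitors, Irak3, a brake on Toll-like receptors made by macrophages, had the largest value, 1.44 (edgeR adjusted p = 0.535), at 1.82 and 2.23 CPM against 0.44 and 1.14 CPM. Of the receptors, Cd14 had the largest, 1.43 (edgeR adjusted p = 0.439). Markers of several cell types also differed between the labels. The microglia markers summed to 526 and 573 CPM in the libraries labelled amygdala and 375 and 298 CPM in those labelled cortex, with 11 of 12 values above 0, and the border macrophage markers to 25.2 and 36.7 CPM against 15.9 and 15.8 CPM. All 4 oligodendrocyte markers lay higher without overlap, with sums of 3336 and 3736 CPM against 2382 and 2420 CPM. The endothelial markers summed to 152 and 149 CPM against 203 and 215 CPM, lower without overlap in 5 of 6. The T and B cell markers summed to 13.5 and 12.3 CPM against 1.65 and 0.74 CPM, nearly all of it Cd4, at 11.7 and 10.5 CPM against 0.32 and 0.34 CPM, and Ms4a1 was at 0.06 CPM at most. Hemoglobin genes and striatum markers, given above, also followed the label, and the part of any of these in the levels of Nfkbia and Bcl3 was not tested.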

How the data were processed

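RNA was extracted with Trizol from brain tissue of the 8 libraries. Alignment by the authors was to GRCm38 (STAR 2.4.0, paired-end reads), and reads per gene were counted with HTSeq 0.6.1. The deposited count columns hold these counts, and the deposited FPKM columns hold the same counts scaled to gene length and library size. The library kit is given differently in the labels and the methods, and whether counting used strand is not given. Left unused were 8 further per-library normalized columns and the authors' fold changes and p-values. Counts were scaled by TMM, filtered with filterByExpr and tested with edgeR 4.0.16 (quasi-likelihood, Benjamini-Hochberg, threshold 0.05), with tissue as a term in the drug comparison, where it equals the replicate number (correlation of same-numbered deviations 0.299). CPM are TMM-scaled. The study's methods name limma, tried as an alternative (limma-voom 3.58.1), beside DESeq2 1.42.0, RLE scaling, no filter, the replicate block and each library left out. The script was tested on simulated data. Promoters are RefSeq windows of GRCm38.p6. No library was a copy of its replicate (chi-square per gene 4.6 to 75.5). The 10 genes and the lists were chosen with earlier results of these data known. All 10 are described. In PTS + RS against RS, the genes of the pathway lists called at 2-fold are named, with the largest and smallest value of most lists. In the other comparisons only some values of the lists are given. Genes such as Tnf, Il6, Tnfaip3 and Ptgs2 were added after their values were seen.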

Additional observations from a re-analysis of the deposited data

Results flagged for a closer look

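The effect of RGFP109 had opposite signs in the cortex-labelled and the amygdala-labelled pair of libraries for 5 of the 10 genes, with 1 library on each side of each ratio. The log2 ratio of HDAC3 inhibitor to NaCl was 1.03 in the cortex pair and -0.12 in the amygdala pair for Relb. It was -0.51 and 0.34 for Nfkbie, 0.59 and -0.070 for Bcl3, 0.41 and -0.049 for Ikbke, and 0.081 and -0.047 for Nfkb2. These differences between the tissues were not tested, since a pair of libraries gives no error, and 48.6% of all genes had the same sign in both pairs. The cortex pair contains NaCl replicate 1, which was low in Fezf2 and Neurod6, and the part of this library in the ratios was not tested.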

How the results depend on the processing

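In PTS + RS against RS, 0 of 10 genes were called higher, 3 without the filter on low counts, 1 by DESeq2, 2 with a replicate block (Bcl3 and Nfkb1) and 0 to 5 with a library left out. Genes called in all were 624, and 1835 without the filter, 371 to 2691 with a library left out and 915 with the block. Replicate numbers there are only numbers (correlation of same-numbered deviations 0.0352). RLE scaling and limma-voom called 0 of 10. In HDAC3 inhibitor against NaCl, 0 of 10 were called under all 9 alternatives, among them the fit with no replicate block (0 genes in all). Genes called in all were 0, but 4 without the filter, 6 by DESeq2 and 0 to 93 with a library left out. In amygdala against cortex, 0 to 3 of 10 were called higher and 0 to 1 lower with a library left out, and genes called in all were 0, but 240 without the filter, 207 by DESeq2 and 0 to 5383 with a library left out (2565 without NaCl replicate 1). Each leave-one-out fit of the second table drops the other factor and sets 1 library against 2. The cause of these shifts was not tested.

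Log2 differences turned sign only with a library left out. Over those fits, Nfkbiz ranged from -0.016 to 0.11 and Ikbke from -0.089 to 0.89 in PTS + RS against RS. In HDAC3 inhibitor against NaCl, Nfkb2 ranged from -0.087 to 0.13 (-0.018 without the inhibitor's replicate 2), Relb from -0.052 to 0.98, Nfkbia from -0.77 to 0.48, Nfkbie from -0.41 to 0.23 and Bcl3 from -1.07 to 1.90, the last 2 at 0.070 and -0.68 without NaCl replicate 1. In amygdala against cortex, Rel ranged from -0.066 to 0.77, Relb from -0.96 to 0.080, Nfkbie from -0.051 to 0.49, Nfkbiz from -0.32 to 0.27 and Ikbke from -0.12 to 0.29. Over all 9 alternatives of PTS + RS against RS, the adjusted p of Bcl3 ran from 1.8e-06 to 0.133 and that of Nfkb1 from 0.00307 to 0.366.

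With 2 libraries in a group, a missed threshold does not show that levels were equal. Depth limits Bcl3 most, with 6 to 13 counts in the RS libraries and the cortex-labelled libraries of the second table. Transcript counts do not measure the activity of NF-κB.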
